A study of Xenopus laevis with 12 samples.

Results

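The genes described here are those whose RNA was raised in frog foregut endoderm at the highest of 3 retinoic acid doses, 500 nM, with little or no rise at 25 or 200 nM. They were chosen by a rule on mean CPM, the count of a gene scaled to a fixed library total, over the 3 libraries of each group. The rule takes a gene ID with a mean of at least 2 CPM at 500 nM and compares each dose with vehicle as a log2 ratio after adding 0.5 CPM to both means. These ratios are called L25, L200 and L500. L500 had to be at least 1, and L25 and L200 both under 0.5. Of 44478 gene IDs, 13 met the rule. All levels at 500 nM, all ratios to vehicle and the direction of 500 nM against the lower doses were thus used in the choice, and they are given as descriptions. Calls from the fit across all IDs are counted for these comparisons beside the share of all IDs called, and nothing is read from them.

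The libraries came from wild-type Xenopus laevis, the African clawed frog, of the NXR_0031 stock. Foregut endoderm was dissected at Nieuwkoop-Faber (NF) stage 15 and cultured as explants to NF stage 25, which took about 16 hours at 15 °C, in 0.1% DMSO as vehicle or in retinoic acid at 25, 200 or 500 nM. A DMSO percentage was recorded for the vehicle group alone. Each group held 3 libraries, and each library was made from a pool of 8 explants. Nothing in the labels says that pools came from different clutches, so the p-values rest on differences between pools that may be technical.

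Retinoic acid is made from vitamin A by retinaldehyde dehydrogenases and binds nuclear receptors of the RAR family, which act on DNA together with RXR partners. Enzymes of the Cyp26 family, themselves induced by retinoic acid, break it down, so the level in a cell depends on supply and removal. In vertebrate embryos the signal sets position along the gut tube and takes part in the formation of lung and pancreas from the foregut.

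The files do not pair the gene IDs with names, and 0 of the 13 IDs matched an entry of the RefSeq gene list for assembly Xenopus_laevis_v10.1. No role is given to any member for that reason, and the foregut identity of the explants could not be checked against marker genes. The members are numbered 1 to 13 by falling L500, and 4 of them are also given by ID. Total counts were 17782601 to 39147729 per library, with DMSO replicate 2 the shallowest and 500 nM replicate 1 the deepest. At 500 nM, replicate 2 gave higher values than replicates 1 and 3 for most members, and the set chosen without it is given further on. Fewer cells of a type and less RNA per cell cannot be told apart in pooled explants.

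Few IDs raised at 500 nM stayed under the limit of 0.5 at both lower doses. All the ratios use the same DMSO mean, so a low DMSO mean raises each of them. Of the 17481 IDs with a mean of at least 2 CPM at 500 nM, 458 had an L500 of at least 1. Among these 458, an L25 of at least 0.5 was seen for 93.2% and an L200 of at least 0.5 for 90.2%. There were 31 IDs with L25 under 0.5 and 45 with L200 under 0.5, and the 13 members, 2.84% of the 458, met both conditions.

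**Figure D1:**
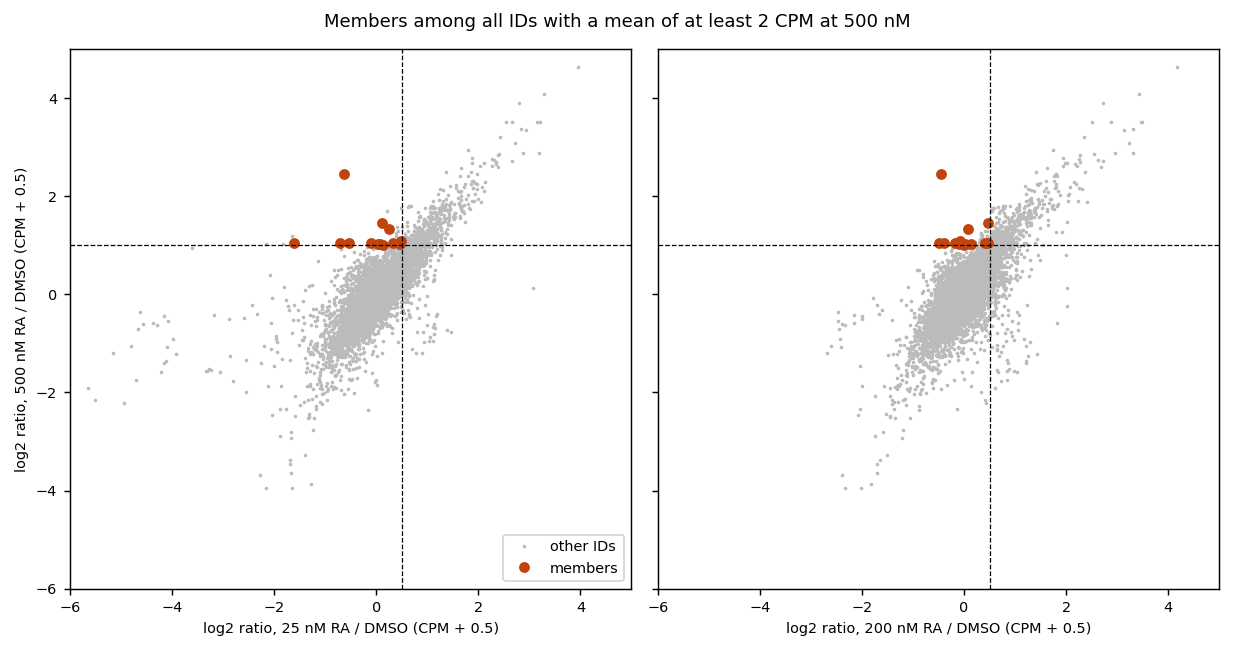
Each point is a gene ID with a mean of at least 2 CPM at 500 nM. The y axis gives the log2 ratio of 500 nM RA to DMSO and the x axis the log2 ratio of 25 nM (left) or 200 nM (right) to DMSO, from group means with 0.5 CPM added; dashed lines mark the thresholds of 1 and 0.5. Most of the 13 members (orange) lie just above the horizontal line, and member 1 stands apart at 2.46.

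One ID stood far from the other members. XBXL10_1g13789, member 1, was at 1.15, 1.29 and 2.16 CPM in DMSO replicates 1, 2 and 3. It was at 1.18, 0.416 and 0.868 CPM at 25 nM, and at 1.37, 1.06 and 0.515 CPM at 200 nM. At 500 nM it was at 9.73, 12.4 and 9.96 CPM, so that every 500 nM library lay far above every other library. The mean was 1.53 ± 0.549 CPM in DMSO and 10.7 ± 1.45 CPM at 500 nM (SD, n = 3 each), 6.97 times the DMSO mean, with an L500 of 2.46. The fitted log2 fold change in edgeR, which adds no 0.5 CPM and so reads higher for low IDs, was 2.86 (SE 0.29).

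The lower doses left XBXL10_1g13789 at or under its vehicle level. Its fitted log2 fold change against DMSO was -0.84 (SE 0.38) at 25 nM and -0.55 (SE 0.36) at 200 nM, and neither was called. At 25 nM it was called lower in 5 of 19 alternatives, among them the fits without 25 nM replicate 1 (-1.17) and without 200 nM replicate 1 (-0.84) or 3 (-0.84), and at 200 nM in 1 of 19, without 200 nM replicate 1 (-0.98). Its counts were 23 to 53 in the DMSO libraries, 10 to 41 at the lower doses and 231 to 381 at 500 nM.

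XBXL10_1g30599, member 2, had the second highest L500, 1.45. It was at 1.05, 1.01 and 1.39 CPM in DMSO, 1.04, 1.75 and 1.09 CPM at 25 nM, 1.37, 2.55 and 1.43 CPM at 200 nM, and 3.70, 4.30 and 4.06 CPM at 500 nM. The 3 libraries at 500 nM lay close together and above all the others, while 200 nM replicate 2 was the highest of the rest. Its L200 of 0.47 was the nearest of all members to the limit of 0.5. Its fitted log2 fold change at 200 nM was 0.68 (SE 0.27) and was called higher, yet the call was lost in 11 of 19 alternatives. Among these were the fits without DMSO replicate 1 (0.60) or 2 (0.61), without 25 nM replicate 3 (0.68), without 200 nM replicate 2 (0.39) and without 500 nM replicate 1 (0.68) or 3 (0.68).

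**Figure D2:**
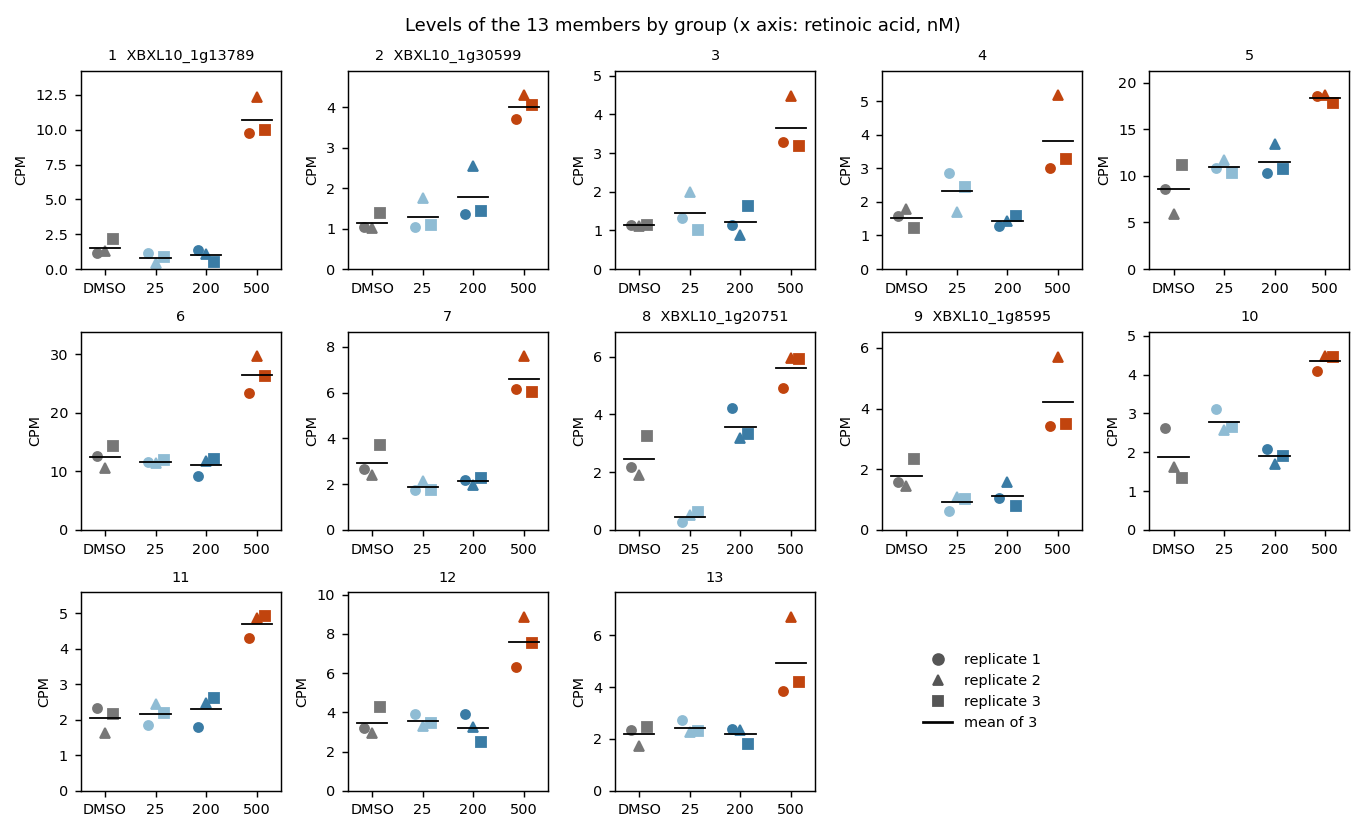
Each panel is 1 member, numbered by falling L500, with CPM on the y axis and the DMSO, 25, 200 and 500 nM groups on the x axis; symbols are the 3 replicates and black bars their mean. In all 13 panels the 3 values at 500 nM lie above the 9 others.

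In every member the 3 values at 500 nM lay above the 9 values of the other groups. The same held for 5.64% of all tested IDs with at least 2 CPM at 500 nM and for 52.2% of the 458 IDs with an L500 of at least 1. Since the rule asks for a high mean at 500 nM and low means elsewhere, nothing is read from this count. In edgeR's quasi-likelihood test, with a Benjamini-Hochberg adjustment across 24454 IDs and a call at an adjusted p under 0.05, 13 of the 13 members were called higher at 500 nM than in DMSO, where 22.3% of the tested IDs were called higher. The rule used this contrast. Against 200 nM 13 members were called higher, with 14.0% of the tested IDs, and against 25 nM 13, with 8.85%. The rule fixes these directions as well.

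On the scale of the rule, most members stood little more than 2-fold above vehicle, from a low level. The 10 members ranked 4 to 13 had an L500 between 1.01 and 1.09, and members 1, 2 and 3 were at 2.46, 1.45 and 1.34. The median L500 was 1.05, while the median L25 was 0.07 and the median L200 was 0.00. In DMSO 11 members had a mean under 4 CPM, and the other two were member 5 at 8.59 ± 2.61 CPM and member 6 at 12.5 ± 1.85 CPM (SD, n = 3 each). The lowest count of a member was 18 in the DMSO libraries and 74 at 500 nM. Scaled to transcript length, the means at 500 nM ran from 0.337 to 10.02 TPM, against 0.143 to 4.60 TPM in DMSO.

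Of the members, 6 were called neither higher nor lower than DMSO at either low dose, as were 54.1% of the tested IDs, and the rule capped both ratios. They were members 1, 3, 6, 11, 12 and 13, of which member 1 was called lower at 25 nM under some alternatives, as given above. Member 6, the most abundant member, was at 12.6, 10.6 and 14.3 CPM in DMSO, 11.6, 11.4 and 11.8 CPM at 25 nM, 9.13, 11.8 and 12.1 CPM at 200 nM, and 23.4, 29.7 and 26.3 CPM at 500 nM. The 9 values below 500 nM overlapped across groups, and its fitted log2 fold changes were -0.06 (SE 0.10) at 25 nM, -0.12 (SE 0.10) at 200 nM and 1.16 (SE 0.09) at 500 nM. These were the smallest errors among the members, in the member with the most counts. Member 3 was at 1.12 to 1.15 CPM in DMSO, 1.02 to 1.997 CPM at 25 nM, 0.892 to 1.62 CPM at 200 nM and 3.19 to 4.49 CPM at 500 nM.

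For these less abundant members the intervals at the lower doses were wide. The 95% interval of the log2 fold change of member 3 was -0.18 to 0.96 at 25 nM and -0.39 to 0.77 at 200 nM, and that of member 13 was -0.24 to 0.65 and -0.37 to 0.54. The intervals thus include no change and changes of those sizes. For member 6 the intervals were -0.25 to 0.14 at 25 nM and -0.32 to 0.08 at 200 nM.

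At 25 nM, 3 members were called lower than DMSO, where 20.3% of the tested IDs were called lower. They were members 7, 8 and 9. XBXL10_1g20751, member 8, was at 2.20, 1.91 and 3.26 CPM in DMSO and at 0.286, 0.499 and 0.604 CPM at 25 nM, with 8 to 16 counts behind the latter. At 200 nM it was at 4.21, 3.19 and 3.33 CPM, and at 500 nM at 4.90, 5.97 and 5.91 CPM. The order of its groups was thus 25 nM, DMSO, 200 nM, 500 nM, and only DMSO and 200 nM overlapped among neighbours, where DMSO replicate 3 lay above 200 nM replicate 2.

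The fitted log2 fold change of XBXL10_1g20751 was -2.37 (SE 0.31) at 25 nM, 0.62 (SE 0.21) at 200 nM and 1.25 (SE 0.20) at 500 nM. It was called lower at 25 nM and higher at 200 nM. The call at 25 nM was kept in 19 of 19 alternatives. The call at 200 nM was lost in 4, among them the fits without DMSO replicate 1 (0.53) or 2 (0.49) and without 200 nM replicate 1 (0.40). Between 200 and 500 nM its log2 fold change was 0.63 (SE 0.19), and that call was lost in 3 of 19, among them without 200 nM replicate 2 (0.52) or 3 (0.54).

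XBXL10_1g8595, member 9, was at 1.57, 1.46 and 2.33 CPM in DMSO, 0.608, 1.08 and 1.02 CPM at 25 nM, and 1.04, 1.57 and 0.792 CPM at 200 nM. At 500 nM it was at 3.42, 5.69 and 3.49 CPM. The 25 nM values lay below all DMSO values, the 200 nM values overlapped them, and 500 nM replicate 2 was well above the other 500 nM libraries. Its fitted log2 fold change was -0.95 (SE 0.29) at 25 nM and -0.60 (SE 0.28) at 200 nM. The call at 25 nM was lost in 3 of 19 alternatives, among them without DMSO replicate 3 (-0.70) or 25 nM replicate 1 (-0.70), and at 200 nM a call was gained in 1, without 200 nM replicate 2 (-0.84). Member 7 had a similar order, with 2.42 to 3.71 CPM in DMSO, 1.74 to 2.12 CPM at 25 nM, 1.95 to 2.26 CPM at 200 nM and 6.04 to 7.59 CPM at 500 nM.

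At 200 nM no member was called lower than DMSO, a count of 0 in edgeR and in DESeq2, where edgeR called 12.9% of the tested IDs lower. At an unadjusted p under 0.05 there was 1, member 9. Without 200 nM replicate 1 or 2 edgeR called 1 member lower. Without DMSO replicate 3 the count lower at 25 nM was 1 in place of 3.

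A limit of 0.5 on L25 and L200 leaves room for some rise at the lower doses. The fitted changes in edgeR are on another scale, with TMM-scaled library sizes and without the added 0.5 CPM, and can exceed 0.5. Of the 13 members, 5 were called higher than DMSO at 25 or 200 nM, where 23.6% of the tested IDs were called higher at either. The rule capped both comparisons, so nothing is read from this count. A rise at 500 nM alone is what the rule asked of the group means, within its limit of 0.5. It is not claimed for every member. At 25 nM these were members 4, 5 and 10, so 3 of 13, with 19.6% of the tested IDs called higher. At 200 nM they were members 2, 5 and 8, again 3, with 14.5% of the tested IDs. The fitted log2 fold change at 25 nM was 0.69 for member 4 and 0.64 for member 10. At 200 nM the fitted change was 0.68 for member 2 and 0.62 for member 8. With TMM-scaled library sizes the rule did not take members 2, 4, 8 and 10, and it did take member 5. Without 25 nM replicate 1 the count at 25 nM was 0, and it was 1 without 25 nM replicate 3, DMSO replicate 2 or DMSO replicate 3. At 200 nM it was 0 without DMSO replicate 1 or 2 and 1 without 200 nM replicate 2.

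Member 5 was the 1 member called higher at both lower doses. It was at 8.64, 5.96 and 11.2 CPM in DMSO, 10.8, 11.7 and 10.3 CPM at 25 nM, 10.3, 13.4 and 10.8 CPM at 200 nM, and 18.6, 18.7 and 17.9 CPM at 500 nM. The 500 nM libraries were nearly level, the DMSO libraries were spread widely with replicate 2 lowest, and DMSO replicate 3 lay within the range of the lower doses. Its fitted log2 fold changes were 0.38 (SE 0.14), 0.47 (SE 0.14) and 1.17 (SE 0.13) at 25, 200 and 500 nM. Members 4 and 10 had higher means at 25 nM than in DMSO, with overlapping values, and were near vehicle at 200 nM. Between 200 and 25 nM member 4 was called and member 10 was not. Member 4 was at 1.22 to 1.80 CPM in DMSO, 1.71 to 2.86 CPM at 25 nM, 1.27 to 1.58 CPM at 200 nM and 3.01 to 5.18 CPM at 500 nM, and member 10 at 1.35 to 2.62, 2.58 to 3.11, 1.70 to 2.07 and 4.09 to 4.49 CPM in the same order.

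**Figure D3:**
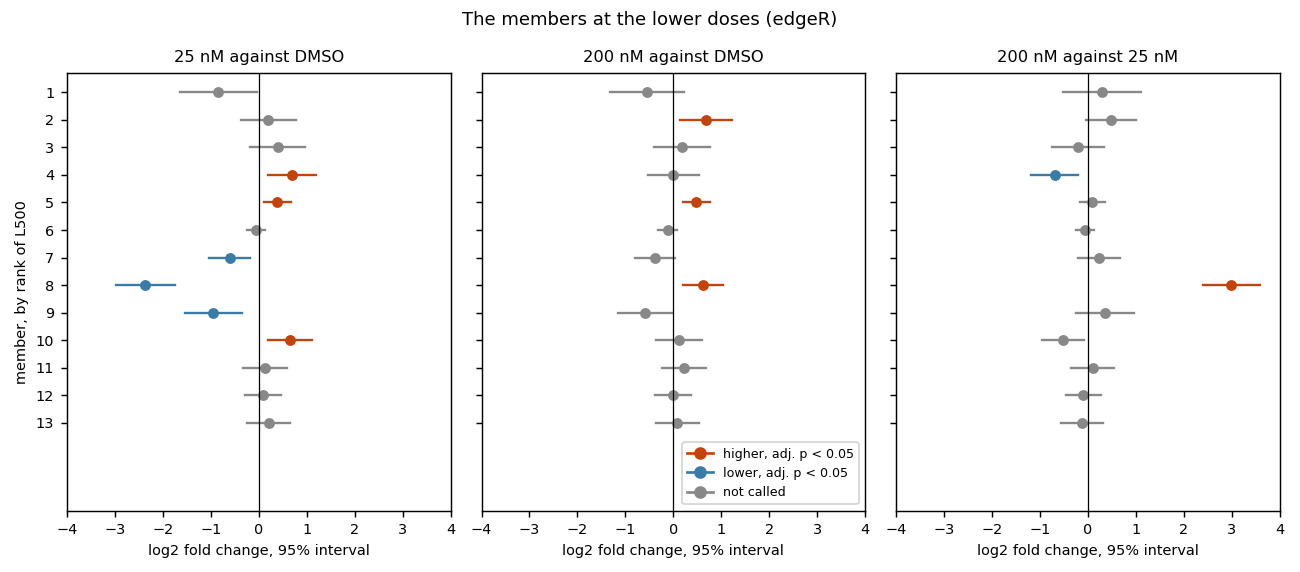
Log2 fold changes from edgeR (points) with 95% intervals (lines) on the x axis, for the 13 members on the y axis, at 25 nM against DMSO, 200 nM against DMSO and 200 nM against 25 nM. Member 8 stands apart, at -2.37 against DMSO at 25 nM and 2.99 between the lower doses.

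Whether the lower doses differed from each other is the comparison whose direction the rule did not fix, although it capped both doses from above. Between 200 and 25 nM, edgeR called 2 of the 13 members, where 19.9% of the tested IDs were called. XBXL10_1g20751 was higher at 200 nM, with a log2 fold change of 2.99 (SE 0.30, 95% interval 2.39 to 3.59) and an edgeR adjusted p of 7.8e-13, and all 3 values at 200 nM lay above all 3 at 25 nM. This ID was named for its low 25 nM values, and the same 25 nM libraries enter this comparison. Its p-values here are therefore a description only. The adjusted p over its 19 alternatives ran from 1.20e-29 to 0.00904. Member 4 was lower at 200 nM, by a log2 fold change of -0.69 (SE 0.24) with an edgeR adjusted p of 0.0311. That second call was lost in DESeq2, in limma on log2(TPM + 1) and without 25 nM replicate 1 or 3 or 200 nM replicate 1 or 2, which each left a count of 1. For the 11 members not called, the intervals together ran from -0.96 to 1.11. For 10 of them a 2-fold difference in either direction lay outside the interval. The rule capped the levels at both doses, so the call of member 4 and these intervals are descriptions as well.

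The libraries at 500 nM did not show the rise equally. With each library set against the DMSO mean on the scale of the rule, 4 members reached a log2 ratio of 1 in replicate 1, 13 in replicate 2 and 9 in replicate 3. The median over the members was 0.92, 1.24 and 1.04 in that order. Replicate 2 was the highest of the 3 libraries for 12 members and replicate 3 for 1, member 11. Among the 458 IDs with an L500 of at least 1, replicate 2 was highest for 70.3%, and among all 17481 IDs with at least 2 CPM for 50.6%. With TMM-scaled library sizes it was highest for 9 members and for 61.8% of the 458. The ratio of replicate 2 to the mean of replicates 1 and 3 had a median of 1.24 over the members and ranged from 1.03 to 1.67.

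**Figure D4:**
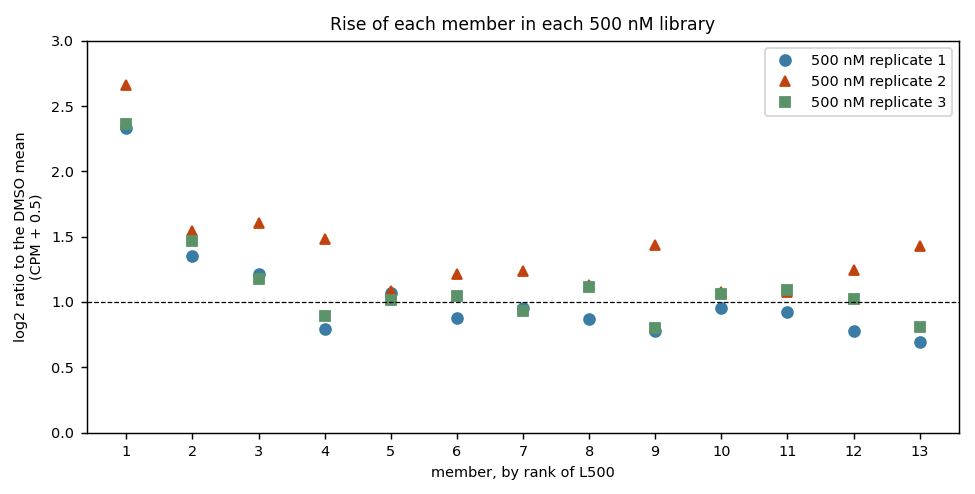
The y axis gives the log2 ratio of each 500 nM library to the DMSO mean (0.5 CPM added) for each of the 13 members on the x axis; the dashed line marks the threshold of 1. Replicate 2 lies above the line for 13 members, replicate 3 for 9 and replicate 1 for 4.

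The split between libraries was uneven among members. At 500 nM, member 13 was at 3.83, 6.71 and 4.18 CPM in the libraries 1, 2 and 3, and member 4 at 3.01, 5.18 and 3.28 CPM. In both, replicate 2 alone carried the mean over the threshold, since the ratio was 0.69 and 0.81 in replicates 1 and 3 for member 13 and 0.79 and 0.89 for member 4. The same held for member 7, at 0.95 and 0.93 in replicates 1 and 3, and for member 9, at 0.78 and 0.80. Members 6, 8 and 12 were at 0.88, 0.87 and 0.78 in replicate 1 and at 1.04, 1.12 and 1.02 in replicate 3. Without 500 nM replicate 2 the rule did not take them either, so their means also needed that library. Only members 1, 2, 3 and 5 passed a ratio of 1 in all 3 libraries. All these ratios are on the scale of the rule, and they were not computed with TMM-scaled library sizes.

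The same ratios were read in libraries that had no part in the choice. The rule was applied to 2 replicate numbers of every group and the chosen IDs were read in the 4 libraries of the third number, 1 per group, so that no test is possible. Without number 1 the rule took 23 IDs, of which 11 were among the 13, without number 2 it took 6 with 3 among the 13, and without number 3 it took 19 with 9 among the 13. The median L500 in the libraries left out was 0.76, 1.69 and 0.75 in that order. Over the 48 choices, which share IDs, L500 was at least 1 in 19 (39.6%), above 0 in 47, and higher than L25 and L200 in 45. The whole condition on the ratios was met again by 8 of 48 (16.7%). The shares over all IDs were not computed beside these counts, so nothing is read from them. For the 6 IDs chosen without number 2, the median L25 and L200 in the libraries of number 2 were 0.67 and 0.56, over the limit of 0.5. The libraries of number 2 include the shallowest DMSO library, which also had the lowest summed level of the 13 members, 35.5 CPM against 43.1 and 51.0 CPM in DMSO replicates 1 and 3. Only 3 of the 6 IDs are among these 13, and a link between that level and the ratios was not tested.

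IDs just inside and just outside the thresholds had nearly the same values. The members nearest to the limit on L500 were at 1.01 and 1.03, and the nearest IDs outside it were at 0.999 and 0.98. The highest L25 among the members were 0.48 and 0.47, and the nearest outside were 0.51 and 0.52. For L200 they were 0.47 and 0.46 inside and 0.53 and 0.55 outside. The ID with an L200 of 0.55 had an L500 of 1.69 and a mean of 2.73 CPM at 500 nM.

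Which IDs belonged to the set depended on single libraries. With each of the 12 libraries left out in turn the rule took 7 to 20 IDs. Without 500 nM replicate 2 it took 7, of which 6 were among the 13, and without DMSO replicate 2 it took 7, of which 3 were among them. Without 500 nM replicate 1 it took 20, including all 13. Members 1 and 3 stayed in the set with any 1 library left out. Member 1 was taken in 23 of 23 alternative settings, member 3 in 22, and member 8, the least often taken, in 10. Some of the 23 only loosen the rule and can lose no member. These are no minimum, an L500 of at least 0.9, and L25 and L200 under 0.6. The 23 also include thresholds chosen after seeing the data.

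**Figure D5:**
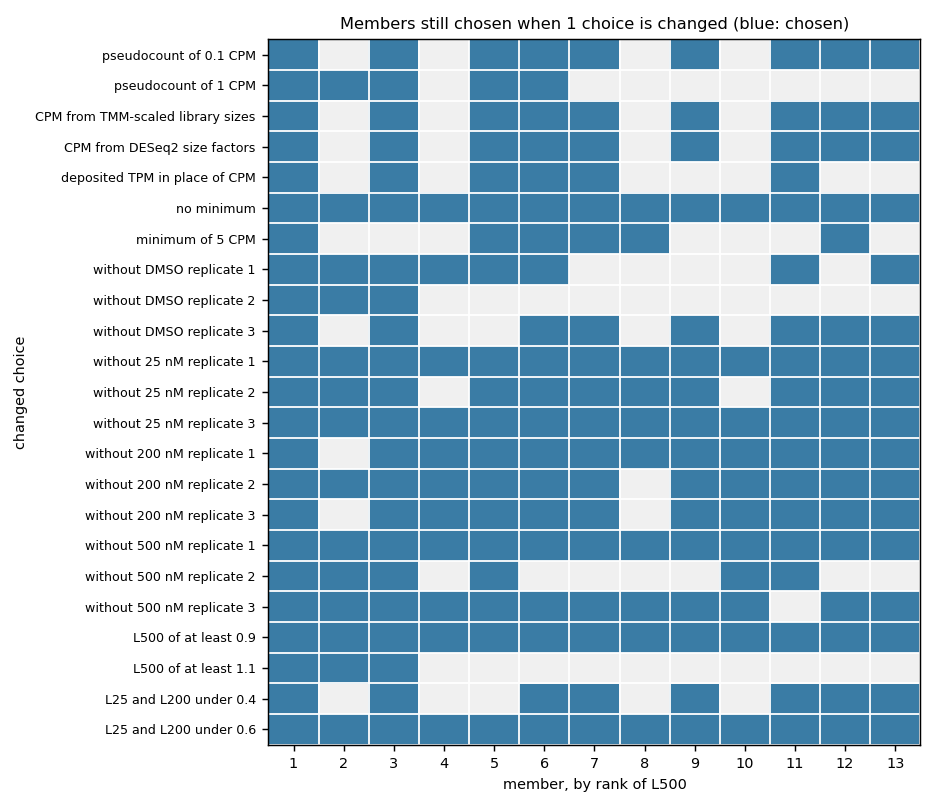
Rows are changes of 1 choice in the rule or 1 library left out and columns the 13 members; blue cells mark members that the rule still took. Column 1 is blue in all 23 rows, and only columns 1, 2 and 3 are blue without DMSO replicate 2.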

How the data were processed

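The submitters' processing notes name RSEM 1.3.0 and Bowtie2. Their order was not given in the sources used here, nor were the genome build and gene models. The authors deposited RSEM-type expected counts, already whole, and TPM for each gene ID. Per the labels' protocols the libraries were made from mRNA with a stranded kit. RSEM divides reads among similar genes, so counts of near-identical L and S copies of the frog genome are estimates; 0 members had counts identical to another ID. Of 44479 rows, 1 names no gene, holds 0 counts and was left out.

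Counts were tested in R 4.3.3 with edgeR 4.0.16 (filterByExpr at a minimum count of 10, TMM, robust quasi-likelihood fit of 4 groups to 12 libraries), which left 24454 IDs, all 13 members included. Rounding changed no count. Standard errors were taken from the model's information matrix and dispersion. The fit was also run on simulated counts drawn with its own fitted dispersions and few changed IDs. That run cannot show how well the errors hold for the real counts. Counts of replicate libraries differed beyond sampling noise, with a chi-square of 2.83 to 80.6 per degree of freedom. Alternatives used DESeq2 1.42.0 and limma 3.58.1. The members and lists were chosen with earlier results of these data known. By the rule for IDs given in the text, the 2 members with the largest L500 and the 2 with the most negative L25 among those called and not overlapping with DMSO at 25 nM are named. Gene lists and cell type markers were not used, because the IDs have no symbols here.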

Additional observations from a re-analysis of the deposited data

How the results depend on the processing

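In place of 13, the rule took 7 IDs with a pseudocount of 1 CPM, of which 5 were among the 13. With the deposited TPM in place of CPM it took 52, of which only 6 were among the 13. It took 21 with no minimum, including all 13, and 6 with a minimum of 5 CPM, all among the 13. With thresholds chosen after seeing the data it took 24 at an L500 of at least 0.9, 3 at 1.1, 8 with L25 and L200 under 0.4 and 25 under 0.6. With 1 library left out it took 7 to 20. With a pseudocount of 0.1 CPM it took 17, and with TMM or DESeq2 scaling 14, of which 9 were among the 13 each time. Calls at 500 nM against DMSO were 13 with any library left out, and 12 to 13 against 25 nM (12 without 25 nM replicate 2 or 500 nM replicate 2) and against 200 nM (12 without 200 nM replicate 2 or 3). In limma on log2(TPM + 1) they were 13 against DMSO, 11 against 25 nM and 12 against 200 nM. Limma called 3696, 761 and 1890 of the 24454 tested IDs higher in that order. The rule fixed these directions, so nothing is read from the counts at 500 nM. Calls between 200 and 25 nM were 1 in DESeq2 and 1 in limma on log2(TPM + 1), and 1 to 2 with a library left out. Of the 24454 tested IDs, DESeq2 called 2197 higher and 1954 lower at 200 nM, and limma 1219 and 1377. At 25 nM against DMSO, 0 members were higher in limma, where 3461 of the 24454 tested IDs were. With a library left out, 0 to 3 members were higher and 1 to 4 were lower. At 200 nM, 0 were higher in limma, 1 with the compared groups fitted alone and 0 to 3 with a library left out, and 0 to 1 were lower. The share of held-out choices with L500 of at least 1 was 35.1% to 39.6% over its settings.

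Of 456 alternative values of the 4 named IDs, 425 had the same sign and call, 21 lost a call, 7 gained one and 3 changed sign, none of these 3 called: XBXL10_1g13789 between 200 and 25 nM ranged from -0.144 (without 200 nM replicate 1) to 0.624 with a library left out, and was also below 0 without 25 nM replicate 2, and XBXL10_1g30599 at 25 nM ranged from -0.0601 (without 25 nM replicate 2) to 0.371. The cause of these changes of sign was not tested. Among the 456 values, 228 compared 500 nM with DMSO or a lower dose, and 225 of these had the same sign and call. The rule fixed the direction of those comparisons, and 2 of the IDs were named for a call at 25 nM. Nothing is thus read from the total. With a replicate block, 2 members were called higher at 25 nM, 2 higher at 200 nM, 3 lower at 25 nM and 2 between 200 and 25 nM. The deviations of libraries with the same number had correlations of -0.0535 to 0.107, 1 of 18 over 0.1, and 4 of 12 libraries correlated best, on average, with their own number, and the numbers were not used as pairs. Counts as low as 8 limit what can be seen at the lower doses.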

Other observations

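With the doses exchanged in the rule, 26 IDs met it for 25 nM and 73 for 200 nM, against the 13 for 500 nM. The IDs with a ratio of at least 1 at those doses were not counted. The exchanged rules were not run under other settings, so nothing is read from these counts. The 3 sets share their DMSO libraries. The ratio of counts to TPM gives each ID's effective transcript length relative to the others. Set against the median of IDs with at least 2 CPM at 500 nM, the members had a median relative length of 1.36, with 4 of 13 under 1. XBXL10_1g20751 was the longest at 9.98, and XBXL10_1g13789 was at 0.750.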
